A study of Ovis aries with 9 samples.

Results

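A set of 10 genes of the hypoxia-inducible factor (HIF) system was followed across 3 glucose groups of cultured ovine granulosa cells (GCs), which line the ovarian follicle and nourish the egg. They were chosen by symbol from the deposited gene table: the HIF subunits HIF1A, EPAS1 and ARNT, the oxygen-dependent enzymes EGLN1, EGLN3 and HIF1AN, and the target genes VEGFA, ADM, BNIP3 and NDRG1. Of these 10 genes, 9 had a row among the 39157 genes of the table, 1 row each, and EGLN1 had no row under that name and was not analysed here. The cells were harvested from follicles of 3 to 5 mm of young thin-tailed Han ewes, with the fluid of many ovaries pooled, so single animals cannot be followed. All cells were grown for 48 h and then kept without glucose and serum for 8 h. The control group (CON) then received 0 mM glucose, the low glucose group (LOW) 8.4 mM and the high glucose group (HIGH) 33.6 mM, each for 24 h, and 3 libraries were sequenced per group. The labels name no treatment with low oxygen in any group. Nor do they say that the 3 libraries of a group came from separate cultures, so the p-values measure only the spread between these libraries, which may be technical.

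HIF is a pair of proteins, an alpha subunit (HIF1A or EPAS1) and the beta subunit ARNT. When oxygen is present, prolyl hydroxylases of the EGLN family mark the alpha subunit for destruction through VHL, and the asparaginyl hydroxylase encoded by HIF1AN blocks its contact with coactivators. When oxygen falls, the alpha subunit is stable, and the pair turns on genes for blood vessel growth, glucose use and mitochondrial clearance. Control of HIF is therefore largely at the level of protein, which these RNA libraries did not measure. In the ovary the pathway is known for the growth of vessels around the follicle and the corpus luteum, since the granulosa layer itself has no vessels.

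The values are FPKM, fragments scaled to transcript length and to the size of the library, and 24365 genes passed the filter of 0.1 FPKM in at least 3 libraries. According to the factors that link the deposited tables, an FPKM of 1 corresponded to 48.0 to 71.3 fragments per kilobase of transcript. The libraries were alike in rank, with Spearman correlations of 0.878 to 0.960 over 36 pairs. They differed in composition within groups: the sum of FPKM over all genes was 803786, 1132873 and 1370942 in CON, 1134598, 1261962 and 1295866 in LOW and 954021, 1005450 and 1241102 in HIGH, with genes of small RNAs taking 30.3% to 72.1% of it. Of 11 granulosa markers 8 had a row, with a summed level of 224 to 249 FPKM (CON), 190 to 205 FPKM (LOW) and 175 to 201 FPKM (HIGH). Most of it was CYP11A1, a steroid-making enzyme, at 135 to 198 FPKM, while the FSH receptor FSHR was at 0.218 to 0.564 FPKM and FOXL2, CYP19A1 and AMH had no row under that name. The 5 stroma markers, led by LUM, summed to 2417 to 2844 FPKM. The 5 smooth muscle and pericyte markers summed to 1664 to 3724 FPKM. The labelled cell type was thus not the only one whose markers were high. In bulk RNA, fewer cells of a type and less RNA per cell cannot be told apart. The 5 endothelial markers summed to 1.06 to 1.63 FPKM, with CDH5 at 0 in every library, and BMP15 of the oocyte and ALAS2 of red blood cells were also at 0. The other oocyte marker with a row, GDF9, was detected, and the oocyte list summed to 0.533 to 0.863 FPKM.

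The HIF genes spanned from one of the most abundant messages in these cells to one barely detected. HIF1A was highest, with a mean of 121 FPKM over the 9 libraries, above 97.7% of the tested genes with a symbol. It was followed by BNIP3 at 44.9, ADM at 25.4, NDRG1 at 12.1 and ARNT at 9.22 FPKM. HIF1AN at 3.35, VEGFA at 3.34 and EPAS1 at 2.88 FPKM lay close together, and EGLN3 was last at 0.0866 FPKM. Each neighbour in this order held its place in 9 of 9 libraries, except that HIF1AN exceeded VEGFA in 4 of 9 libraries and VEGFA exceeded EPAS1 in 8 of 9. HIF1AN and VEGFA therefore did not differ in level beyond their spread. Of the alpha subunits, HIF1A exceeded EPAS1 in every library.

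**Figure D1:**
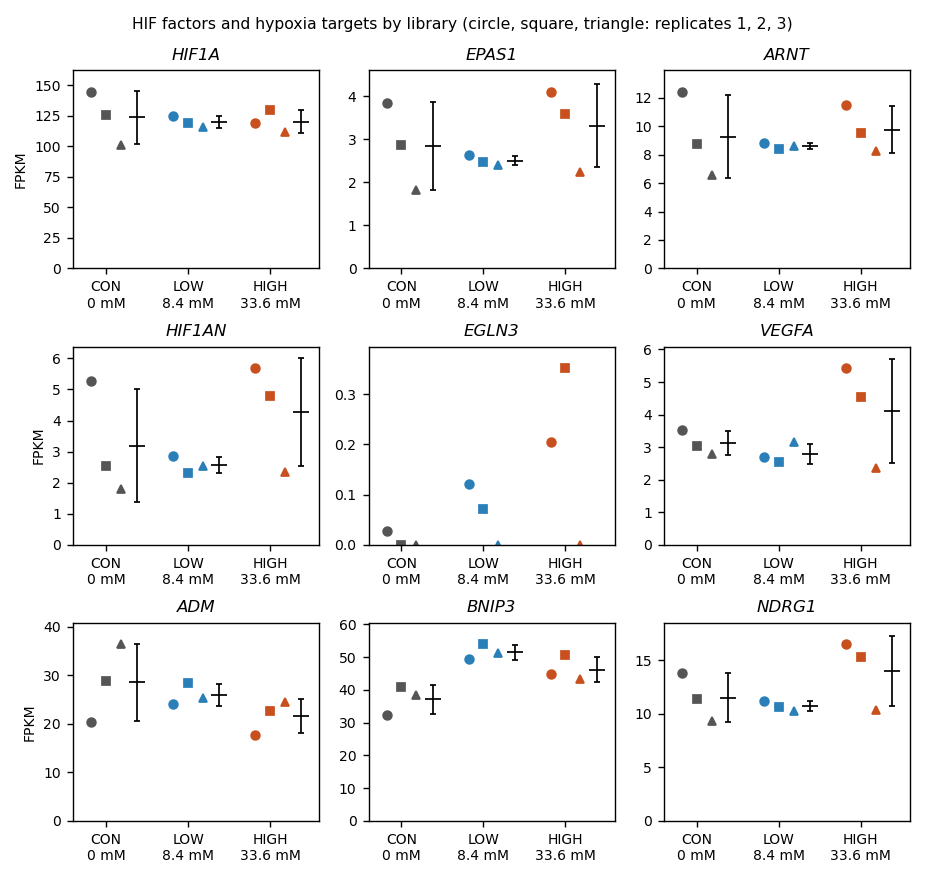
FPKM of the 9 genes (vertical axis, linear from 0) in each library of CON (0 mM glucose), LOW (8.4 mM) and HIGH (33.6 mM); symbols are replicates and the bars beside them the group mean ± SD, left out for EGLN3 because 4 of its libraries are at 0. BNIP3 is the gene whose 3 CON libraries all lie below the LOW and HIGH libraries, while in the HIGH group replicate 3 lies below the other two for VEGFA, NDRG1, HIF1AN and EPAS1.

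None of the 9 genes passed the test in any of the 3 comparisons, which ask how the transcripts differ without glucose, at 8.4 mM and at 33.6 mM. Genes were called at an adjusted p-value under 0.05 (limma on log2(FPKM + 0.1), Benjamini-Hochberg over all tested genes) together with an absolute log2 fold change above 1. Of all tested genes, 0.0123% were called for LOW over CON, 0.00821% for HIGH over CON and 0.00821% for HIGH over LOW. At an unadjusted p under 0.05, 1 of the 9 passed for LOW over CON, 1 for HIGH over CON and 0 for HIGH over LOW, beside 1.88%, 6.87% and 8.05% of all tested genes. The gene that passed was BNIP3 in both. The median log2 fold change of the 9 genes was 0.02 for LOW over CON, 0.36 for HIGH over CON and 0.33 for HIGH over LOW, against 0.01, 0.12 and 0.11 over all tested genes.

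BNIP3 encodes a receptor on the outer mitochondrial membrane that directs mitochondria to autophagy. Its level was 32.2, 40.9 and 38.3 FPKM without glucose (CON), 49.3, 53.9 and 51.2 FPKM in LOW, and in HIGH it was 44.8, 50.6 and 43.2 FPKM. All 6 libraries with glucose lay above all 3 without, and LOW and HIGH overlapped as deposited. The group means were 37.1 ± 4.45 FPKM in CON, 51.5 ± 2.35 in LOW and 46.2 ± 3.87 in HIGH (SD, n = 3 each). On the log2(FPKM + 0.1) scale, after library scaling, BNIP3 was 0.58 higher in LOW than in CON (SE 0.13, 95% interval 0.30 to 0.87, unadjusted p = 0.00113), which placed it at rank 18 of 24365 genes by p. It was 0.40 higher in HIGH than in CON (SE 0.13, interval 0.12 to 0.69, unadjusted p = 0.0102). Neither passed after adjustment, with an adjusted p of 1.0 and 0.657 in limma, and over all other settings tried the adjusted p ran from 0.784 to 1.0 for LOW over CON. For HIGH over LOW the difference was −0.18 (SE 0.13, interval −0.46 to 0.10), an interval that holds 0. Groups that did not overlap were found for 1 of the 9 genes in each comparison, always BNIP3, beside 6.3%, 9.42% and 18.6% of all tested genes; for HIGH over LOW this held after scaling only. The row of BNIP3 (chromosome 22, 49644177 to 49688819, in the coordinates of the deposited tables) summed a coding transcript, BNIP3-201, and an assembled antisense transcript, BNIP3-AS1. BNIP3-201 took 98.1% to 99.5% of the row. It was 0.60 higher in LOW than in CON (SE 0.12, unadjusted p = 0.00103) and 0.42 higher in HIGH than in CON (SE 0.12, unadjusted p = 0.00819). BNIP3-AS1, at 0.260 to 0.768 FPKM, was 0.80 higher in HIGH than in LOW (SE 0.33, unadjusted p = 0.0382). Without HIGH replicate 1 this difference was 0.60 (limma unadjusted p = 0.136). It kept an unadjusted p under 0.05 in 3 of the 9 leave-outs of single libraries. The sources used here do not state whether counting used the strand, so reads of BNIP3 and of its antisense transcript cannot be told apart.

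HIF1A, the alpha subunit that most cells use, had nearly the same mean in all 3 groups. Its level was 144.9, 125.3 and 101.4 FPKM in CON, 124.9, 118.9 and 115.5 FPKM in LOW and 119.4, 130.0 and 111.5 FPKM in HIGH. The CON libraries spanned the range of the other two groups and exceeded it on both sides. The log2 fold change was 0.07 for LOW over CON (interval −0.21 to 0.36), 0.06 for HIGH over CON (−0.23 to 0.34) and −0.02 for HIGH over LOW (−0.30 to 0.27). Each interval excluded a 2-fold difference in HIF1A message in either direction.

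The fitted differences of 1 annotated transcript of HIF1A were larger than those of the summed gene, though none passed after adjustment. HIF1A-201 (chromosome 7, 70762392 to 70807563) and HIF1A-202 (70782330 to 70807563) have the same end coordinate, and HIF1A-202 lies within the span of the longer one. HIF1A-202 was at 19.1, 12.8 and 6.10 FPKM in CON, at 43.8, 34.4 and 35.9 FPKM in LOW and at 35.6, 13.8 and 5.18 FPKM in HIGH. It thus took 13.2%, 10.2% and 6.02% of HIF1A without glucose, 35.0%, 28.9% and 31.1% at 8.4 mM, and 29.8%, 10.6% and 4.65% at 33.6 mM. The LOW libraries lay above every CON library, while HIGH was divided, with replicate 1 near LOW and replicates 2 and 3 near CON. HIF1A-202 was 1.82 higher on the log2 scale in LOW than in CON (SE 0.64, unadjusted p = 0.0200, limma adjusted p = 1.0) and 1.46 lower in HIGH than in LOW (log2 fold change −1.46, unadjusted p = 0.0494). HIF1A-201 had a log2 fold change of −0.32 for LOW over CON (SE 0.13, unadjusted p = 0.0395) and 0.30 for HIGH over LOW (SE 0.13, unadjusted p = 0.0534). The former kept an unadjusted p under 0.05 in 4 of the 9 leave-outs of single libraries. Without LOW replicate 1 the difference of HIF1A-202 between LOW and CON had an unadjusted p of 0.0537, and without CON replicate 3 it was 1.39 with an unadjusted p of 0.0716. For HIGH over LOW, HIF1A-202 kept an unadjusted p under 0.05 in 2 of the 9 leave-outs of single libraries, and its log2 fold change ran from −0.78 without HIGH replicate 3 to −2.18 without HIGH replicate 1. The division of overlapping fragments between these transcripts is an estimate of the assembler.

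**Figure D2:**
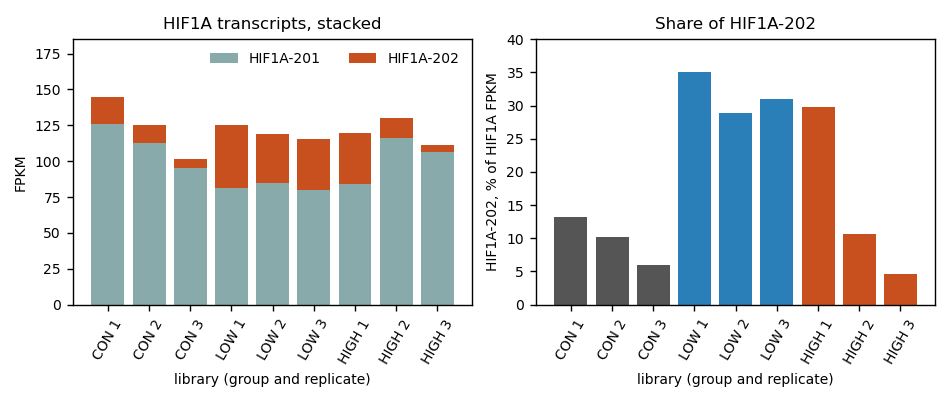
Left, FPKM of HIF1A-201 and HIF1A-202 stacked per library (9 libraries, replicate number after the group name); right, the share of HIF1A-202 in the HIF1A total in percent. HIF1A-202 takes 28.9% to 35.0% in the LOW libraries, 6.02% to 13.2% in CON, and 4.65% to 29.8% in HIGH.

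The other subunits varied more between libraries than between groups. ARNT, the beta subunit (chromosome 1, 99680911 to 99747432), was at 12.4, 8.79 and 6.60 FPKM in CON, 8.83, 8.38 and 8.60 in LOW and 11.5, 9.54 and 8.24 in HIGH. EPAS1, the HIF-2 alpha subunit prominent in vessel-lining cells (chromosome 3, 77880264 to 77921519), was at 3.85, 2.87 and 1.81 FPKM in CON, 2.62, 2.47 and 2.40 in LOW and 4.10, 3.59 and 2.25 in HIGH. For both genes CON held the highest or next highest and the lowest of all libraries, and the groups overlapped. The log2 fold changes of ARNT were 0.05, 0.19 and 0.15 for LOW over CON, HIGH over CON and HIGH over LOW, with standard errors of 0.21. Those of EPAS1 were −0.01, 0.32 and 0.33, with standard errors of 0.28, so a 2-fold difference of EPAS1 lay just outside its intervals (0.95 at the upper end for HIGH over CON).

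The 2 oxygen-dependent enzymes with a row were among the less abundant genes. HIF1AN (chromosome 22, 20567775 to 20577658) was at 5.27, 2.53 and 1.78 FPKM in CON, 2.85, 2.32 and 2.54 in LOW and 5.70, 4.79 and 2.34 in HIGH. High values of HIF1AN were found in HIGH replicates 1 and 2 and in CON replicate 1, and the groups overlapped. Its log2 fold change was 0.54 for HIGH over CON (SE 0.39, unadjusted p = 0.202) and 0.60 for HIGH over LOW (SE 0.39, unadjusted p = 0.159), with intervals that reached 1.43 and 1.49. EGLN3, a prolyl hydroxylase that is itself induced by HIF (chromosome 18, 43294794 to 43322556), was listed at 0.0267, 0 and 0 FPKM in CON, 0.122, 0.0721 and 0 in LOW and 0.205, 0.353 and 0 in HIGH. It passed the filter through 3 libraries (LOW 1, HIGH 1 and HIGH 2), was at 0 in replicate 3 of each group, and its highest value stood for about 18.6 fragments per kilobase. The difference for HIGH over CON was 1.15 (SE 0.59, unadjusted p = 0.0794) on the log2(FPKM + 0.1) scale, which compresses ratios of such low values. As no CON library helped it through the filter, this p is no support for a difference.

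VEGFA, the main growth factor of blood vessels (chromosome 20, 17368866 to 17382112), was at 3.52, 3.05 and 2.80 FPKM in CON, 2.69, 2.53 and 3.15 in LOW and 5.43, 4.54 and 2.35 in HIGH. HIGH held both the 2 highest libraries and the lowest one, and its mean of 4.11 ± 1.59 FPKM (SD, n = 3) exceeded 3.12 ± 0.367 in CON and 2.79 ± 0.320 in LOW by less than its own spread. The log2 fold change was −0.05 for LOW over CON (SE 0.27), 0.39 for HIGH over CON (SE 0.27, unadjusted p = 0.182) and 0.45 for HIGH over LOW (SE 0.27, unadjusted p = 0.134).

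NDRG1, a stress-induced gene of differentiation (chromosome 9, 21078135 to 21120382), was, like VEGFA, highest in HIGH replicates 1 and 2. Its level was 13.8, 11.3 and 9.34 FPKM in CON, 11.2, 10.6 and 10.3 in LOW and 16.5, 15.3 and 10.3 in HIGH. HIGH replicates 1 and 2 were above every other library, and replicate 3 was within the CON and LOW ranges. The log2 fold change was 0.02 for LOW over CON (SE 0.19), 0.36 for HIGH over CON (SE 0.19, unadjusted p = 0.0866) and 0.34 for HIGH over LOW (SE 0.19, unadjusted p = 0.101).

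Single libraries, among them HIGH replicate 3 and CON replicate 1, changed these values. Without HIGH replicate 3, 5 of the 9 genes were at an unadjusted p under 0.05 for HIGH over CON and 4 for HIGH over LOW, while 13.8% and 16.4% of all tested genes were. For HIGH over CON they were VEGFA (log2 fold change 0.72, unadjusted p = 0.00460), NDRG1 (0.55, unadjusted p = 0.00931), BNIP3 (0.43, unadjusted p = 0.0160), HIF1AN (0.90, unadjusted p = 0.0422) and EGLN3 (1.79). BNIP3 also passed with all libraries kept. For HIGH over LOW they were VEGFA (0.78, unadjusted p = 0.00307), NDRG1 (0.53, unadjusted p = 0.0110), HIF1AN (0.96, unadjusted p = 0.0325) and EGLN3 (1.24). EGLN3 is in both counts but is no support for a difference. It passed the filter through HIGH replicates 1 and 2, the HIGH libraries kept here, and LOW replicate 1. Without CON replicate 1, 4 genes were at an unadjusted p under 0.05 for HIGH over CON (ADM, HIF1AN, BNIP3 and NDRG1), while 25.9% of all tested genes were. No gene of the 9 passed after adjustment in either case, and the lowest limma adjusted p of any of them under any setting was 0.174 for HIGH over CON and 0.187 for HIGH over LOW.

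ADM encodes adrenomedullin, a peptide that widens vessels, and was the one target whose mean was lowest in HIGH. It was at 20.5, 28.8 and 36.4 FPKM in CON, 24.1, 28.5 and 25.2 in LOW and 17.7, 22.7 and 24.5 in HIGH. The groups overlapped, and CON held the widest range. The log2 fold change was 0.00 for LOW over CON (SE 0.22), −0.29 for HIGH over CON (SE 0.22, unadjusted p = 0.219) and −0.29 for HIGH over LOW (SE 0.22, unadjusted p = 0.214), and without CON replicate 1 it was −0.53 for HIGH over CON (unadjusted p = 0.0117). Of the 5 transcripts of ADM (chromosome 15, 41936965 to 41943314), the assembled TCONS_00087612 took 62.5% to 76.6%. The annotated ADM-201 was a minor one, at 0.479, 0.414 and 0.690 FPKM in CON, 0.370, 0.284 and 0.514 in LOW and 1.46, 0.844 and 0.756 in HIGH. All HIGH libraries lay above all others for ADM-201. It was 0.89 higher on the log2 scale in HIGH than in CON (SE 0.35, unadjusted p = 0.0326) and 1.16 higher in HIGH than in LOW (SE 0.35, unadjusted p = 0.00951, limma adjusted p = 0.648). Leaving out CON replicate 1, CON replicate 2 or HIGH replicate 1 took the first of these to an unadjusted p of 0.0730, 0.0987 and 0.126. TCONS_00087610 of ADM had a log2 fold change of −0.70 for HIGH over LOW (SE 0.30, unadjusted p = 0.0467), and −0.41 without HIGH replicate 1.

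Over the 15 transcripts of the 9 genes, all of them tested, 0 were called in limma in any comparison, beside 0.0254%, 0.0279% and 0.033% of 39434 tested transcripts. At an unadjusted p under 0.05, 3 passed for LOW over CON, 2 for HIGH over CON and 4 for HIGH over LOW, and 2.71%, 6.15% and 7.09% of all transcripts did. They are those given above for HIF1A, ADM and BNIP3, the 3 genes with more than 1 transcript. Groups without overlap were found for 4, 2 and 5 of the 15 transcripts, beside 7.12%, 9.48% and 16.2% of all transcripts.

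**Figure D3:**
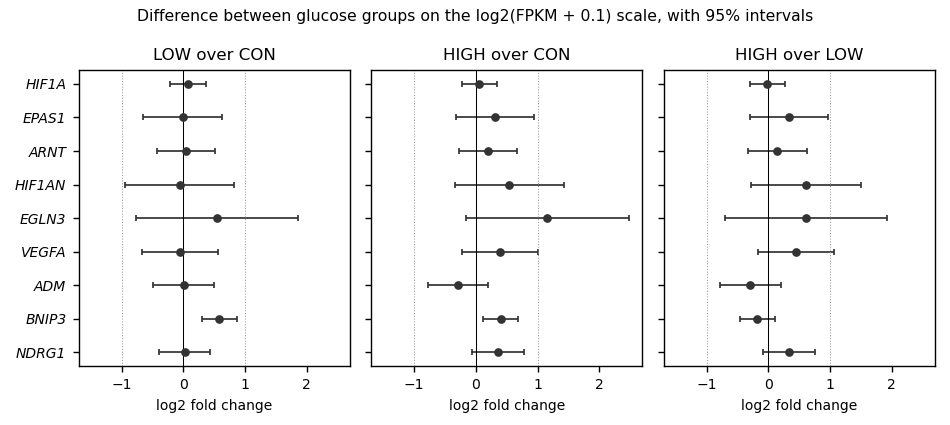
Log2 fold change (horizontal axis, log2(FPKM + 0.1) after library scaling) of the 9 genes in the 3 comparisons with 95% intervals from limma; the dotted lines mark a 2-fold difference. The intervals of BNIP3 for LOW over CON (0.30 to 0.87) and HIGH over CON (0.12 to 0.69) leave out 0, and all others include it.

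Many of the genes, but not BNIP3, were correlated with each other from library to library, some in opposite directions. Over the 9 libraries, 18 of the 36 pairs passed an exact two-sided permutation test of Pearson's r after Benjamini-Hochberg adjustment over the 36 pairs, 13 with a positive and 5 with a negative r, and 21 pairs did before adjustment. EPAS1 and HIF1AN had r = 0.96 (rho 0.88, exact permutation p = 0.000220 and 0.00308, adjusted 0.00132 and 0.0185), and r = 0.94 once the 2 libraries most distant from the median were left out. HIF1AN and ADM went in opposite directions, with r = −0.96 (rho −0.95, exact permutation p = 3.31e-05 and 0.000353, adjusted 0.000595 and 0.00635), and r = −0.91 with those most distant for HIF1AN left out. The same 2 relations within groups, as deviations from the group means, had r = 0.96 and −0.95. VEGFA and NDRG1 had r = 0.90 (rho 0.75, exact permutation p = 0.00235 and 0.0255, adjusted 0.00846 and 0.0483), which was 0.44 without the 2 most distant libraries and thus rested on them. Other passing pairs fell likewise, HIF1A with ARNT from 0.83 to 0.28 and HIF1A with ADM from −0.75 to −0.31. EGLN3, a gene near the floor, fell with NDRG1 from 0.78 to 0.32, while EPAS1 with NDRG1 kept 0.89. Of the 28 pairs without BNIP3, 10 did not pass, such as HIF1A with VEGFA (r = 0.34). BNIP3 passed with none of the 8 others, with an absolute r of 0.36 at most. As deviations from the group means, its r was 0.68 with ADM, −0.54 with ARNT and −0.49 with HIF1AN. With the others it was −0.40 (HIF1A) to 0.02 (VEGFA). Such relations were common in these libraries: an absolute r as large as that of the weakest of the 18 pairs, 0.699, was reached by 30.5% of all pairs of 9113 abundant genes, and by 50% of the pairs of HIF genes.

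**Figure D4:**
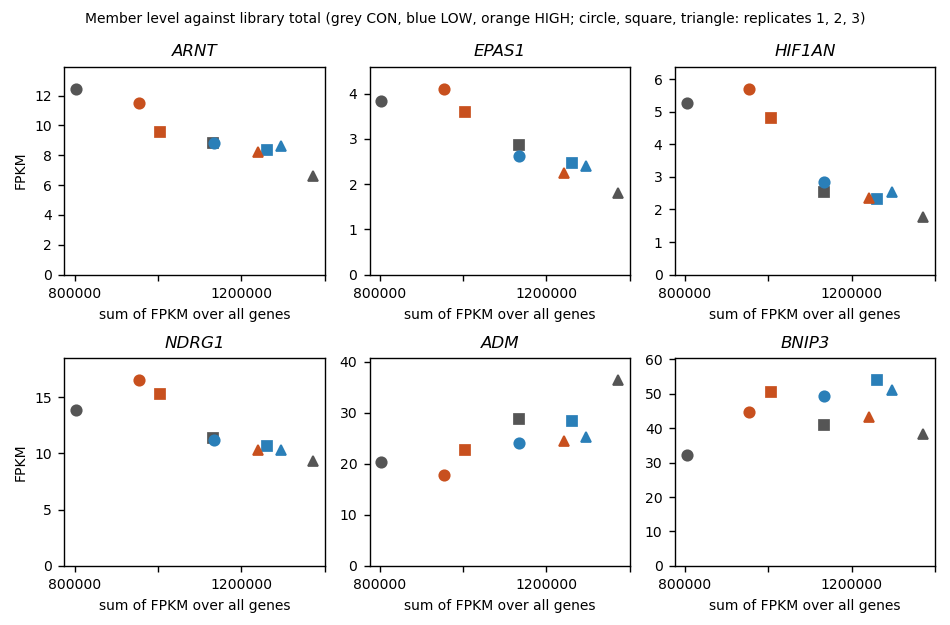
FPKM of 6 of the genes (vertical axis, linear from 0) against the sum of FPKM over all genes of the library (horizontal axis, which does not start at 0); colours are groups and symbols replicates. ARNT, EPAS1 and HIF1AN are lower and ADM is higher in the libraries with a larger sum, which runs from 803786 to 1370942; BNIP3 is lowest in the 3 CON libraries at any sum.

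The level of several of these genes followed the composition of the library. With the sum of FPKM over all genes, HIF1AN had r = −0.89 (rho −0.85, exact permutation p = 0.00149 and 0.00607), EPAS1 r = −0.86 (rho −0.93, p = 0.00273 and 0.000750), ARNT r = −0.84 (rho −0.73, p = 0.00353 and 0.0311) and ADM r = 0.89 (rho 0.85, p = 0.000967 and 0.00607). Adjusted over the 27 relations computed (9 genes with 3 properties of the library), these 4 values of r had p = 0.0101, 0.0123, 0.0136 and 0.0101 by the exact permutation test. Leaving out the 2 libraries most distant from the median sum, r was −0.91, −0.94, −0.75 and 0.85, and as deviations from the group means −0.96, −0.91, −0.91 and 0.97. HIF1A and NDRG1 had r = −0.72 and −0.75 with the sum (exact permutation p = 0.0367 and 0.0205, adjusted 0.0826 and 0.0554). Their rho was −0.87 and −0.88 (exact permutation p = 0.00451 and 0.00308), and their r as deviations from the group means −0.89 and −0.86. Of all the abundant genes, 24.7% had an absolute r of 0.8 or more with this sum, as had 4 of the 9 HIF genes. VEGFA and NDRG1 followed the share of small RNAs, with r = −0.90 and −0.92 (rho −0.60 and −0.85, exact permutation p = 0.00548 and 0.000879, adjusted 0.0164 and 0.0101). So did EPAS1, HIF1AN and ADM, with r = −0.85, −0.89 and 0.80 (rho −0.85, −0.77 and 0.78, exact permutation p = 0.00125, 0.00196 and 0.00533, adjusted 0.0101, 0.0106 and 0.0164). Leaving out the 2 libraries with the most distant shares, r of VEGFA and NDRG1 was −0.40 and −0.69, so that of VEGFA rested on them. For EPAS1, HIF1AN and ADM it was −0.71, −0.81 and 0.74. HIGH replicates 1 and 2, the libraries with the most VEGFA and NDRG1, had 30.3% and 50.7% of FPKM in small RNAs. The gene levels and the sum come from the same libraries, and the part of library composition in the differences between groups was not tested. BNIP3 had r = 0.49 with the sum and 0.19 with the share of small RNAs (exact permutation p = 0.179 and 0.602). Without the 2 most distant libraries these were 0.37 and 0.83, and as deviations from the group means 0.63 and 0.28. A relation of BNIP3 to library composition was thus not shown to be absent.

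Likeness to other genes, which share the depth and composition of the same 9 libraries, was described for HIF1A and VEGFA. The genes with the highest Pearson r to HIF1A, of 9105 candidates with a symbol, were ZMYM4, NKTR and JMJD1C, each at 0.99. Those nearest to VEGFA were NOL4L at 0.96, HNRNPM at 0.95 and SLC25A23 at 0.95. Without the 2 most distant libraries these were 0.89 for each of the former, and 0.83, 0.78 and 0.63 for the latter.

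The wider HIF pathway was described by a list of 87 other genes, of which 77 had a row and 71 were tested. No row was found under the names VHL, BNIP3L and LDHA, among 10 such genes, and PGF, KDR, RAMP3, IGFBP1, EPO and CA9 were too low, at 0 to 0.161 FPKM. No gene of the 71 was called in limma in any comparison. At an unadjusted p under 0.05, 9 passed for LOW over CON (8 higher, 1 lower), 11 for HIGH over CON (10 higher, 1 lower) and 5 for HIGH over LOW (5 higher, 0 lower), where 0.932%, 4.53% and 5.95% of all tested genes were higher and 0.944%, 2.34% and 2.1% lower. The median log2 fold change of the 71 genes was 0.10, 0.18 and 0.06. These counts changed with single libraries: for HIGH over CON the count was 26 without CON replicate 1 and 17 without HIGH replicate 3, when 25.9% and 13.8% of all tested genes were at an unadjusted p under 0.05. It was 7 without CON replicate 2 (4.24% of all genes) or any of the LOW libraries (5.41% to 5.45%). For LOW over CON it was 5 without CON replicate 2 (1.57%) and 3 without LOW replicate 3 (1.48%). For HIGH over LOW it was 14 without HIGH replicate 3 (16.4%), 9 without CON replicate 3 (12.6%) and 3 without CON replicate 2 (6.31%) or HIGH replicate 1 (3.87%). Of the 25 values of single pathway genes given here at an unadjusted p under 0.05, 12 stayed there whichever library was left out: those of PFKFB3, STC2, AK4, PDK1, PFKL and P4HTM, and that of SLC16A3 for HIGH over CON.

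Genes that handle glucose made up 15 of the 71. Of these, 3 passed at an unadjusted p under 0.05 for LOW over CON, 4 for HIGH over CON and 3 for HIGH over LOW, all higher in the group with more glucose. Of all tested genes, 1.88%, 6.87% and 8.05% passed in either direction. PFKFB3, which makes the activator of phosphofructokinase, was at 4.78, 4.44 and 5.56 FPKM in CON, 8.64, 6.99 and 6.63 in LOW and 13.0, 11.0 and 9.53 in HIGH. The 3 groups did not overlap. PFKFB3 was 0.68 higher on the log2 scale in LOW than in CON (SE 0.16, unadjusted p = 0.00202), 1.24 higher in HIGH than in CON (SE 0.16, unadjusted p = 2.52e-05) and 0.56 higher in HIGH than in LOW (SE 0.16, unadjusted p = 0.00674). Its limma adjusted p for HIGH over CON was 0.123, and 0.0597 to 0.596 over all settings. SLC16A3, the lactate exporter, was 0.45 and 0.71 higher in LOW and HIGH than in CON (SE 0.18 each, unadjusted p = 0.0301 and 0.00276). PFKL, a subunit of phosphofructokinase, was 0.98 higher in HIGH than in CON and 0.85 higher than in LOW (SE 0.27, unadjusted p = 0.00533 and 0.0114), the latter 0.56 without HIGH replicate 1. PDK1, which restrains entry of pyruvate into mitochondria, was 0.46 higher in LOW than in CON (SE 0.11, unadjusted p = 0.00237) and 0.24 higher in HIGH than in CON (unadjusted p = 0.0581), the order CON, HIGH, LOW that BNIP3 also had. HK2, a hexokinase, was 1.20 higher in HIGH than in LOW (SE 0.51, unadjusted p = 0.0434), but 0.70 without HIGH replicate 1 (unadjusted p = 0.177). ENO1, enolase, was 0.27 higher in HIGH than in CON (SE 0.11, unadjusted p = 0.0407). SLC2A1, the glucose transporter that hypoxia is best known to induce, had log2 fold changes of −0.17, 0.03 and 0.20 in the 3 comparisons (SE 0.16), with no unadjusted p under 0.05.

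Of 31 other hypoxia-induced genes, 5 passed at an unadjusted p under 0.05 for LOW over CON, 5 for HIGH over CON and 1 for HIGH over LOW, beside 1.88%, 6.87% and 8.05% of all tested genes. AK4, a mitochondrial adenylate kinase, was at 3.84, 3.39 and 3.18 FPKM in CON, 5.96, 4.86 and 5.27 in LOW and 4.64, 5.20 and 4.45 in HIGH. As with BNIP3, every library with glucose exceeded every CON library. AK4 was 0.72 higher in LOW than in CON (SE 0.13, unadjusted p = 0.000375) and 0.53 higher in HIGH than in CON (SE 0.13, unadjusted p = 0.00283). STC2, a secreted glycoprotein, was at 0.766, 0.707 and 0.876 FPKM in CON, 1.10, 0.776 and 1.05 in LOW and 1.86, 2.03 and 1.60 in HIGH. The HIGH libraries lay above all others, by 1.20 over CON (SE 0.21, unadjusted p = 0.000238) and 0.83 over LOW (SE 0.21, unadjusted p = 0.00291) on the log2 scale. The rest were DDIT4, an inhibitor of mTORC1 signalling (0.81, or 0.50 without HIGH replicate 1), and LOX, a collagen cross-linking enzyme (0.25), for HIGH over CON, and WSB1 (0.30), the prolyl hydroxylase of collagen P4HA1 (0.23), ANKRD37 (0.55) and IGFBP3, an IGF carrier (−0.73), for LOW over CON. STC1, named after its values were seen as the 1 lower gene for HIGH over CON, had −0.26. KDM3A, a histone demethylase, had log2 fold changes of 0.26, 0.38 and 0.12 (SE 0.22), with no unadjusted p under 0.05.

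Among 14 regulators and further subunits of HIF, 0, 1 and 0 passed at an unadjusted p under 0.05 in the 3 comparisons, beside 1.88%, 6.87% and 8.05% of all tested genes. The 1 was P4HTM, a membrane-bound prolyl hydroxylase, which was 0.44 higher in HIGH than in CON (log2 scale, SE 0.13, unadjusted p = 0.00858). EGLN2, a HIF prolyl hydroxylase at 10.6 to 24.0 FPKM in these libraries, had log2 fold changes of 0.06, −0.32 and −0.38 (SE 0.24). CITED2, which competes with HIF for its coactivators, had 0.03, −0.16 and −0.19 (SE 0.19). Of 11 angiogenic and adrenomedullin genes 1 passed in each comparison, beside the same shares of all tested genes. Those that passed were named after their values were seen: ANGPTL4, which inhibits lipoprotein lipase, at 0.45 for LOW over CON and 0.45 for HIGH over CON (both 0.29 without CON replicate 2), and RAMP2, part of the adrenomedullin receptor, at 0.30 for HIGH over LOW.

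**Figure D5:**
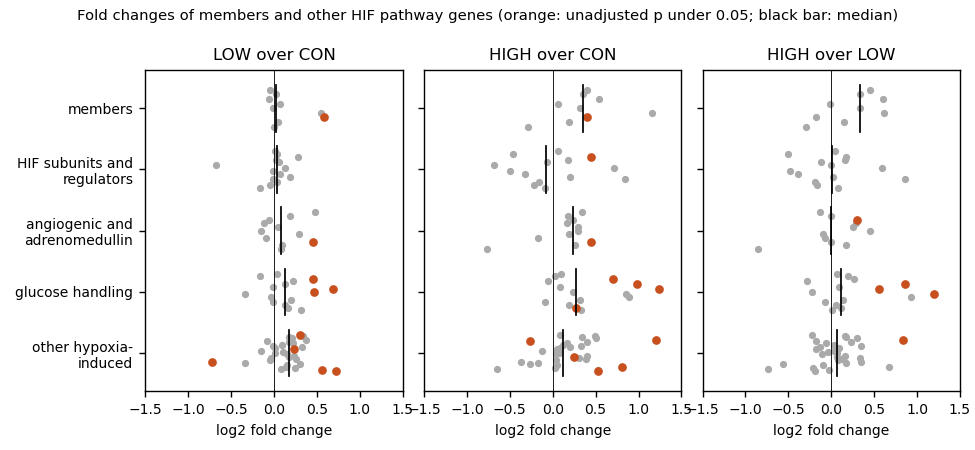
Log2 fold change (horizontal axis) of each tested gene in the 3 comparisons, by role: the 9 HIF genes (members), 14 HIF subunits and regulators, 11 angiogenic and adrenomedullin genes, 15 glucose handling genes and 31 other hypoxia-induced genes. Orange points have an unadjusted p under 0.05 and black bars are medians; the points farthest to the right among glucose handling genes are PFKFB3 for HIGH over CON (1.24) and HK2 for HIGH over LOW (1.20).

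Of 28 tested cell type markers, 7 had an unadjusted p under 0.05 for HIGH over CON and 7 for HIGH over LOW, none of which passed after adjustment in limma. Of all tested genes, 6.87% and 8.05% had such a p. The collagen gene COL1A1 was 1.58 higher on the log2 scale in HIGH than in CON (SE 0.41, unadjusted p = 0.00377), and COL1A2 and PDGFRA were 0.83 and 0.79 higher, while INHA and CYP11A1 of the granulosa list had log2 fold changes of −0.51 and −0.29. GATA4, another of the 8 granulosa markers, was 0.75 higher in HIGH than in LOW, where INHA had −0.43. For HIGH over CON, GATA4, ESR2, FST and INHBA had 0.49, 0.42, 0.17 and 0.01. FSHR and NR5A1 had −0.10 and −0.25 there, and none of these granulosa markers had an unadjusted p under 0.05. Of 5 stroma markers 3, the collagen genes and PDGFRA, were thus higher in HIGH than in CON at an unadjusted p under 0.05. LUM and DCN had 0.05 and −0.06 for HIGH over CON, and −0.02 and −0.06 for HIGH over LOW, with no unadjusted p under 0.05. The summed level of the stroma list was 2505 to 2693 FPKM in CON and 2562 to 2844 in HIGH. COL1A1 and COL1A2 were also 1.53 and 0.84 higher in HIGH than in LOW, as was CSPG4 of pericytes by 0.37. The rest of the smooth muscle and pericyte list went both ways, with no unadjusted p under 0.05. For HIGH over LOW, MYH11 had 0.90, ACTA2 −0.04, TAGLN −0.49 and RGS5 −0.60. The epithelial KRT8 had −0.75 for HIGH over CON and −0.71 for HIGH over LOW, EPCAM had −1.71 for HIGH over LOW, and CD68 of immune cells had −0.48 for HIGH over CON. The other immune markers PTPRC, CSF1R and CD14 had 1.07, 0.14 and 0.06 for HIGH over CON, with no unadjusted p under 0.05. For LOW over CON, 0 of the 28 markers were at an unadjusted p under 0.05 in limma, beside 1.88% of all tested genes. The part of cell composition in the values of VEGFA, NDRG1 and HIF1AN in HIGH was not tested.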

How the data were processed

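The authors removed ribosomal RNA, sequenced 150 bp read pairs, aligned them with Hisat2 and deposited FPKM per gene and per transcript; the build of the coordinates is not given in the sources used here. The authors also deposited count tables, which matched FPKM times genomic span times a factor per library (within 3% for 100% of transcripts checked), so they were treated as a score and used for depth alone. The submitters' processing notes also list TopHat2, STAR 2.5.1b and HTSeq 0.6.0. A total of 0 sample columns were unmapped.

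Groups were taken from the labels. Libraries were brought to a common median over the genes at 1 FPKM or above in all of them, and log2(FPKM + 0.1) was taken; genes with an Ensembl identifier and no symbol were scaled on their own median. Genes and transcripts spanning under 300 bases, or reaching 0.1 FPKM in fewer than 3 libraries, were left out. All 9 libraries were fitted in limma 3.58.1 (R 4.3.3) with a trend of the spread, with Benjamini-Hochberg adjustment over all 24365 genes or 39434 transcripts. Correlations used scaled log2 values and exact permutation (scipy 1.17.1). On simulated data with 200 genes changed 4-fold in the HIGH group, 200 were recovered with 0 other calls for HIGH over CON among 24043 tested genes. The changed genes had a mean of 1 FPKM or above, and apart from a library factor the simulated spread was independent between genes. Recovery of smaller differences was not simulated, nor the spread of genes such as HIF1AN and EGLN3 (within-group SD 0.57 and 0.74 on the log2 scale).

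The genes, lists and tests were chosen with earlier results of these data known. Named pathway genes were the 15 with the smallest unadjusted p and 8 fixed ones; STC1, ANGPTL4 and RAMP2 were named in addition after their values were seen. Alternatives were another pseudocount, other filters, no scaling, 2 groups only, symbols only, the replicate block and leaving out each library. The design foresaw tests of counts, which were not run because the count tables do not hold counted reads. No promoter or protein sequences were used here.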

Additional observations from a re-analysis of the deposited data

How the results depend on the processing

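The number of HIF genes called after adjustment was 0 under every alternative in each comparison, as it was for the pathway list and the transcripts, and no named value past an unadjusted p under 0.05 changed sign. At an unadjusted p under 0.05, leaving out each library gave 1 to 1 of the 9 genes for LOW over CON, 1 to 5 for HIGH over CON and 0 to 4 for HIGH over LOW. For the pathway list these ranges were 3 to 11, 7 to 26 and 3 to 14, for the 15 transcripts 1 to 3, 1 to 6 and 1 to 7, and for the correlated pairs 12 to 18. Over the same leave-outs the share of all tested genes ran from 1.48% to 4.06%, from 3.35% to 25.9% and from 3.87% to 16.4%. The pathway count for LOW over CON was 5 with FPKM as deposited, in place of 9, while the share of all tested genes was 2.6%, in place of 1.88%. With only the 2 groups compared in the fit, the pathway count was 7 for HIGH over CON and 9 for HIGH over LOW, in place of 11 and 5, and the transcript count 1 and 2, in place of 2 and 4. The share of all tested genes was then 3.87% and 13.8%, in place of 6.87% and 8.05%. With a filter of 1 FPKM in at least 3 libraries the transcript count was 1 for HIGH over CON and 1 for HIGH over LOW. The cause of these changes in the counts was not tested. The share of all tested transcripts is not given here for any alternative or leave-out, so the transcript counts under them cannot be read against it.

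Without scaling, the median log2 fold change of all genes was −0.09 for LOW over CON, 0.03 for HIGH over CON and 0.11 for HIGH over LOW, in place of 0.01, 0.12 and 0.11. The sign of ADM, ARNT, HIF1A and NDRG1 then changed for LOW over CON, and of HIF1A in the other two comparisons, all with an unadjusted p far from 0.05. In the pathway list 52.1% of genes were then higher for LOW over CON (70.4% with scaling; all genes 34.3% and 51.7%) and 59.2% for HIGH over CON (74.6% with scaling; all genes 52.7% and 61.4%). Each of the 9 genes had 1 row, so summing rows changed nothing.

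The replicate numbers are shared between groups, but same-numbered libraries did not all deviate together: the correlation of deviations was 0.37 to 0.67 for number 1, −0.08 to 0.03 for number 2 and 0.18 to 0.68 for number 3. With the replicate block, 3 of the 9 genes were at an unadjusted p under 0.05 for HIGH over CON (BNIP3, NDRG1 and EGLN3) and 1 for HIGH over LOW (NDRG1), beside 14.6% and 15.7% of all genes. EGLN3 is no support here, since no CON library helped it through the filter. The block gave 20 pathway genes for HIGH over CON and 15 for HIGH over LOW, and 4 transcripts for HIGH over CON, and 0 calls after adjustment. Depth limits EGLN3 and the antisense transcript of BNIP3.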
